A study of Rattus norvegicus with 2 samples.

Results

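The circadian clock genes Per1, Per2, Per3, Cry1, Cry2, Clock, Nr1d1, Nr1d2, Dbp and Tef were examined in cultured epidermal keratinocytes of newborn rats, with and without siRNAs against the DNA demethylases Tet2 and Tet3. The 10 genes were taken from a fixed list of clock symbols with a named probe, out of 15037 named genes on the array, and each had 1 probe set. Signals came from whole-transcript oligonucleotide arrays, 1 per group. The control cells carry the genotype label control and are described as non-treated, and the siTet2/3 cells were transfected with siTet2 and siTet3 at 1 µM each with a lipid reagent. Whether the control received another siRNA or the reagent alone is not stated in the labels. Vitamin C was given to both groups for 12 h, beginning 24 h after transfection, and both grew in medium with 10% fetal bovine serum and 0.4 µg/mL hydrocortisone. Both agents can set the phase of clock genes in cultured cells, as background. The clock time at which RNA was taken is not given in the labels, so each gene was read at 1 time only and no rhythm could be followed.

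The circadian clock of mammalian cells is a loop of transcription factors. CLOCK, or its relative NPAS2, pairs with BMAL1 and binds E-box sequences in the Per, Cry, Nr1d and Dbp genes; PER and CRY proteins return to the nucleus and repress that pair. A second loop runs through the nuclear receptors REV-ERBα and REV-ERBβ, the products of Nr1d1 and Nr1d2, which repress Bmal1 through ROR elements. DBP and TEF are PAR-domain bZIP activators that carry the rhythm to D-box genes. Keratinocytes hold such a clock, and in epidermis it times DNA replication, cell division and differentiation.

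Nr1d1 and Tef had lower signals on the siTet2/3 array, where Tef lay below background. Bmal1 is the gene that REV-ERB proteins repress, and the signal of Per2 hardly differed. The promoters of these genes, chosen with their values known, are shown first. Each is the 250 bases before a transcription start in RefSeq, build GRCr8, read 5′ to 3′ on the gene's strand, with motif matches in capitals. Nr1d1 has 2 annotated starts in that table, and both are given. The build behind the array annotation is not given in the sources used here. The windows are chr10:84231813-84232062 (minus strand) for the outer Nr1d1 start, chr10:84229455-84229704 (minus) for the inner one, chr7:115206577-115206826 (plus) for Tef, chr1:176766078-176766327 (plus) for Bmal1 and chr9:99496994-99497243 (minus) for Per2.
Nr1d1 outer start: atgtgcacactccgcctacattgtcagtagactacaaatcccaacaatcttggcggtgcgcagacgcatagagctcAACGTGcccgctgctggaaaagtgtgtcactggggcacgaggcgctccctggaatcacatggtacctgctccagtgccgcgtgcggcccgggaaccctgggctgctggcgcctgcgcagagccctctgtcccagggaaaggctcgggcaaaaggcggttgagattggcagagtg
Nr1d1 inner start: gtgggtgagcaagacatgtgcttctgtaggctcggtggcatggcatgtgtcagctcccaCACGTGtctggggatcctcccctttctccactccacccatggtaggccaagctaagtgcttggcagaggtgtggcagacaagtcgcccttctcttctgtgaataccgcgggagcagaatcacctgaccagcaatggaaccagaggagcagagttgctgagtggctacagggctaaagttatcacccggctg
Tef: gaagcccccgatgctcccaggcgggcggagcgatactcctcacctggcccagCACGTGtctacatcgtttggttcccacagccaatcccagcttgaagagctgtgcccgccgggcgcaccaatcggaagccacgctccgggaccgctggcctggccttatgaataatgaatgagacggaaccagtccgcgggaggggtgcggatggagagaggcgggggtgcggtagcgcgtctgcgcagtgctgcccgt
Bmal1: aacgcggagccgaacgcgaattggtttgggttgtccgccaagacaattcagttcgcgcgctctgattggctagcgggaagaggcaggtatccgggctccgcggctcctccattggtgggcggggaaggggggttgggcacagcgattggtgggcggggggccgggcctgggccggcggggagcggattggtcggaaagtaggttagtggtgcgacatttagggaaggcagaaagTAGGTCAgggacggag
Per2: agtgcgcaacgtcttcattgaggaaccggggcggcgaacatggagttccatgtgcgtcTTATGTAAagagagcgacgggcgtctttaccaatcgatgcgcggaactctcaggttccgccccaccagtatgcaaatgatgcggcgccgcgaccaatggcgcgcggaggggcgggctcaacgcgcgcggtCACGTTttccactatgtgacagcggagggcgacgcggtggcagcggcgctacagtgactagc

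Motifs were searched on both strands of 300-base windows, which reach 50 bases past each start; 9 of the 10 clock genes matched a window by symbol, Cry1 being the exception. The E-box CACGTG was found in 2 of the 9, 198 bases before the Tef start and 191 bases before the inner Nr1d1 start, and in 6.42% of all 33469 windows in the table. The variant E-box CACGTT was found in 3 of the 9: 174 bases before the outer Nr1d1 start, where it reads AACGTG on the strand shown, 62 bases before the Per2 start and 212 bases before the Cry2 start. Of all windows 4.83% held it. Per2 also carried the D-box TTATGTAA, 192 bases before its start, a form present in 0.893% of windows. The ROR element core TAGGTCA was in none of the 9 but lay 16 bases before the Bmal1 start (2.63% of all windows). The D-box form TTACGTAA (0.12%), the cAMP element TGACGTCA (1.83%) and the glucocorticoid element, the half-sites GNACA and TGTNC with 3 bases between them (0.439%), were in none of the 9. A match is a stretch of letters and not evidence of binding, and sites outside the windows were not searched.

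Because TET enzymes act on methylated CpG, CpG dinucleotides were counted in the 250 bases before each start. The clock genes had a median of 17 over 11 windows, where all windows had a median of 5 and an upper quartile of 15. All windows were used whatever the signal of the gene, and expressed genes were not compared separately. Per2 had 32, Clock 31 at one start and 0 at the other, Nr1d2 24, Tef 23, Cry2 19, Dbp 17, Per3 17 and Per1 2. Nr1d1 had 16 before its outer start and 6 before its inner one. DNA methylation itself was not measured on these arrays.

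**Figure D1:**
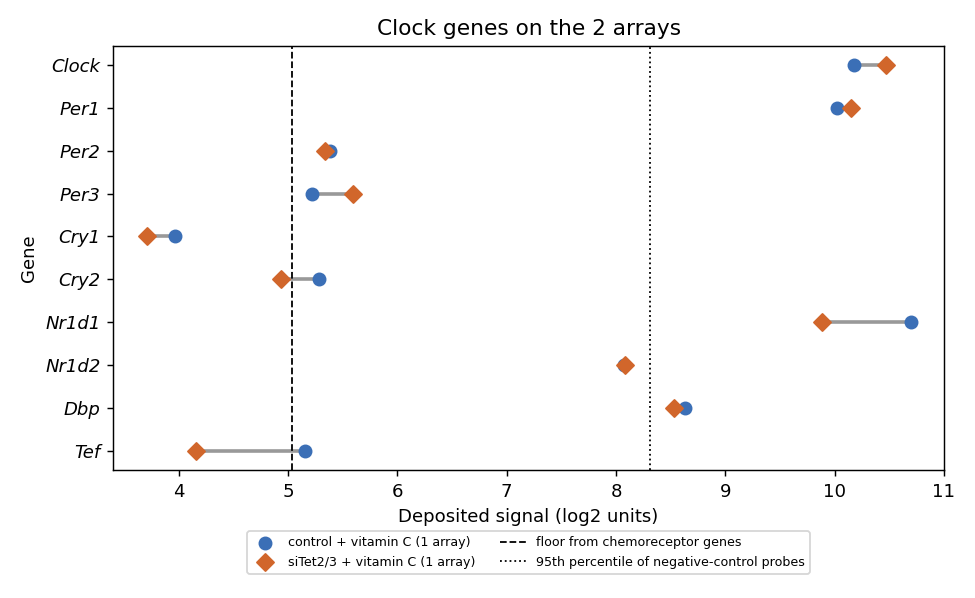
Deposited signal in log2 units (horizontal axis) of the 10 clock genes (vertical axis), with 1 circle for the control array and 1 diamond for the siTet2/3 array; the dashed line is the background floor of 5.04 and the dotted line the 95th percentile of negative-control probes, 8.31. Nr1d1 and Tef have the longest connecting lines, and the Tef line crosses the floor.

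Of the 10 clock genes, Nr1d1 and Tef read at least 1.5-fold lower on the siTet2/3 array, and none read 1.5-fold higher. Of all 8103 genes above background, 13.2% read at least 1.5-fold lower and 8.63% at least 1.5-fold higher, so these counts are near the background. The repressor gene Nr1d1 was 1.76-fold lower and well above background on both arrays. The output factor gene Tef was 1.99-fold lower as measured, but its siTet2/3 signal lay below background, which leaves a bound of 1.09-fold. Clock, Per1, Per2, Per3, Cry2, Nr1d2 and Dbp differed by at most 1.30-fold in either direction. Cry1 was below background on both arrays.

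Background was set with genes for smell, taste and pheromone receptors, most of which are silent outside sensory tissue: the floor of 5.04 log2 units is the 95th percentile of the higher of their 2 values over 1206 such genes. A gene was counted as above the floor if its higher value passed it. This held for 9 of the 10 clock genes, and for 7 of them on both arrays. Each group had 1 array, so no difference has a replicate check or a p-value, and "lower" and "higher" describe these arrays. The precision of the values is limited by this number. In a culture, fewer cells of a type and less RNA per cell cannot be told apart.

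The 2 lower genes among 9 stand beside 1070 of all 8103 genes above the floor, or 13.2%, that were at least 1.5-fold lower; 8.63% of all genes were at least 1.5-fold higher, against 0 of the 9. Over 9 genes these shares correspond to 1.19 lower and 0.776 higher genes, so the counts of the clock genes are near the background. The median difference of the 9, siTet2/3 minus control, was -0.04 log2 units, where all genes above the floor had a median of -0.05. Of the 9, 5 had differences below 0 and 4 above. Nr1d1 alone was 1.5-fold lower once values beneath the floor were replaced by the floor.

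Clock, which encodes a DNA-binding activator subunit of the loop, read 10.17 log2 units in control cells and 10.47 in siTet2/3 cells. It was 1.23-fold higher with the siRNAs, a difference of 0.30. The 400 genes nearest to Clock in level had differences with a robust SD of 0.42, so its difference lies within the usual spread between these arrays. This spread over other genes is a description and holds both noise and real differences.

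The partners of CLOCK are not among the 10 genes but were read for the same loop. Bmal1 read 9.15 log2 units in control cells and 9.52 in siTet2/3 cells, or 1.29-fold higher, with a spread among like-level genes of 0.42. Npas2, the relative that can stand in for CLOCK, read 5.96 and 6.04, a difference of 0.08 where like-level genes had a spread of 0.56. On the control and siTet2/3 arrays 20.4% and 18.9% of negative-control probes were brighter than Npas2. All 3 activator genes were a little higher on the siTet2/3 array, each by less than the spread of its level, and none reached 1.5-fold. Of all 8103 genes above the floor, 3611 were also higher to some degree.

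The Per genes encode the period proteins, the negative arm that limits CLOCK and BMAL1. Per1, which in many cells also responds directly to glucocorticoids and cAMP, read 10.02 log2 units in control cells and 10.15 in siTet2/3 cells. Per2 read 5.38 and 5.34. Per3 read 5.22 and 5.59, the largest increase among the 10 at 1.30-fold. Per1 was brighter than all but 1.56% of 1153 negative-control probes on the control array, while 29.4% of them were brighter than Per2 and 33.1% brighter than Per3. The 3 Per differences, 0.12, -0.04 and 0.37, were all smaller than the robust SD of genes of their level, which was 0.43, 0.52 and 0.52.

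The Cry genes encode cryptochromes, which act with the PER proteins as the main repressors. Cry2 read 5.29 log2 units in control cells and 4.93 in siTet2/3 cells, where it lay below the floor. As measured it was 1.28-fold lower, and as a bound at least 1.19-fold. Cry1 read 3.96 and 3.71, under the floor on both arrays, so no fold is given; 64.6% and 68.5% of negative-control probes were brighter. Both Cry differences were smaller than the spread of genes of like level (0.50 for Cry2 and 0.53 for Cry1).

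Nr1d1 encodes the haem-binding repressor REV-ERBα. It read 10.70 log2 units in control cells and 9.88 in siTet2/3 cells, a difference of -0.82. The 400 genes nearest in level had a robust SD of 0.42, so the Nr1d1 difference was 1.92 times that spread. Its signal exceeded that of all but 1.39% of negative-control probes on the control array and all but 1.99% on the siTet2/3 array. Centring on the median difference of all genes above the floor gave a 1.70-fold and removal of a trend on level a 1.69-fold lower value. Of the 4 clock genes above the negative-control level of 8.31, which were Per1, Clock, Nr1d1 and Dbp, it alone passed 1.5-fold. Of all 4124 genes above that level, 10.98% were at least 1.5-fold lower and 6.01% at least 1.5-fold higher. In RefSeq annotation Nr1d1 overlaps Thra, a thyroid hormone receptor gene. Thra read 8.07 and 7.96, a difference of -0.11. Whether the probes of either gene take up signal of the other was not tested. Per2, Cry1, Cry2 and Clock overlap uncharacterised loci in the same annotation.

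Nr1d2 encodes REV-ERBβ, which shares much of its function with REV-ERBα. It read 8.07 log2 units in control cells and 8.08 in siTet2/3 cells, a difference of 0.01. The 2 receptor genes thus differed by 0.83 log2 units in their change between arrays, which was not tested. On both arrays 4.68% of negative-control probes were brighter than Nr1d2.

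**Figure D2:**
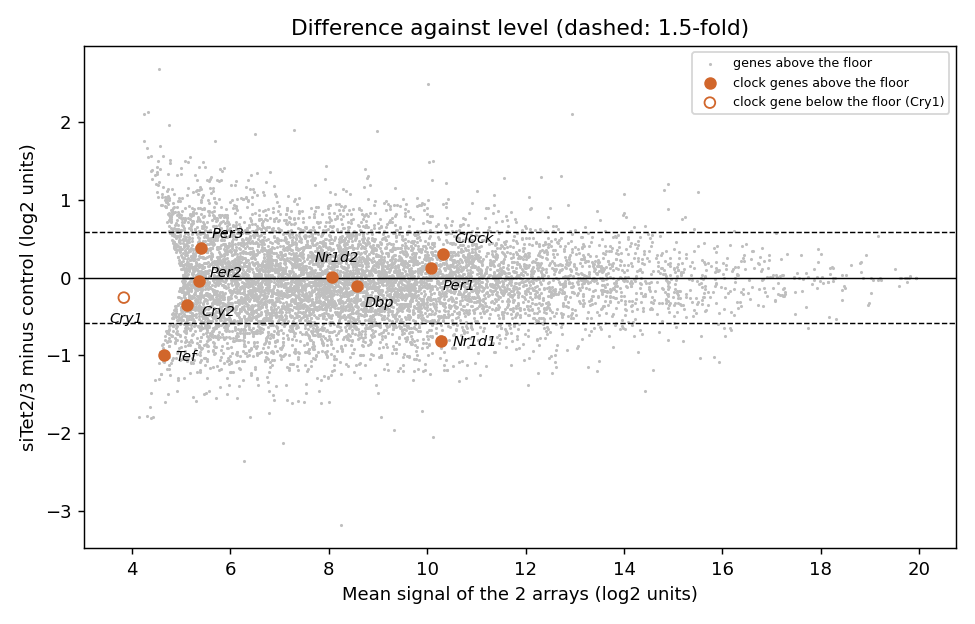
Difference between the arrays (vertical axis, siTet2/3 minus control in log2 units) against the mean of the 2 signals (horizontal axis, log2 units) for the 8103 genes above the floor (grey points) and the clock genes (orange; Cry1, open, is below the floor). Dashed lines mark 1.5-fold. Nr1d1 and Tef lie below the lower line and the other clock genes between the lines.

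Dbp and Tef carry the rhythm to D-box genes. Dbp, in many tissues among the most strongly rhythmic clock targets, read 8.63 log2 units in control cells and 8.53 in siTet2/3 cells, 1.07-fold lower. Tef read 5.16 and 4.16. The Tef difference of -0.996 was 1.82 times the robust SD of genes of its level, 0.55. However, 34.7% of negative-control probes were brighter than Tef in the control and 56.9% in the siTet2/3 sample. Among the 1206 receptor genes used to set the floor, 11.69% were at least 1.5-fold lower and 17.16% at least 1.5-fold higher. Dbp and Tef, of the same family, thus read differently between the arrays by 0.89 log2 units, with the Tef value at background.

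**Figure D3:**
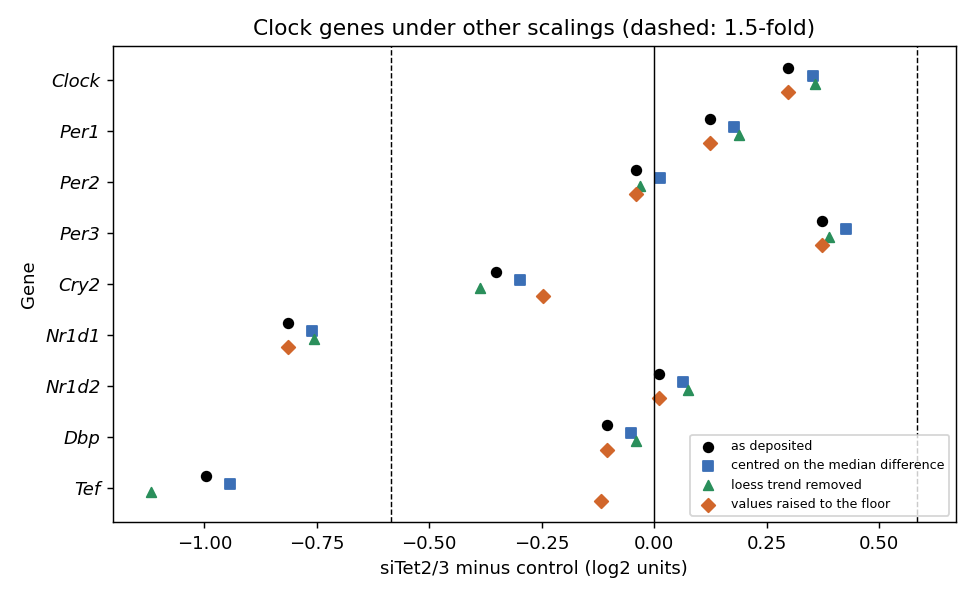
Difference between the arrays (horizontal axis, siTet2/3 minus control in log2 units) of the 9 clock genes above the floor (vertical axis) as deposited, after centring on the median difference, after removal of a loess trend on level and with the floor in place of any value beneath it; 1 symbol per setting, dashed lines at 1.5-fold. Nr1d1 lies between -0.82 and -0.76 in all 4 settings, while Tef moves from -0.996 to -0.12 when the floor replaces its siTet2/3 value.

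The other genes of the core loop were read from a list of 12, of which 8 had a named probe and 6 lay above the floor. Of the 6, Bhlhe40 passed 1.5-fold downward, 0 passed it upward and 5 did neither, with a median difference of 0.04. Of all 8103 genes above the floor, 13.2% were lower and 8.63% higher, so these counts are near the background. Bhlhe40 encodes DEC1, a repressor that competes with CLOCK and BMAL1 for E-boxes; it read 11.83 log2 units in control cells and 10.88 in siTet2/3 cells, or 1.94-fold lower. It is also a known hypoxia-responsive gene. The promoter table places an E-box 220 bases before its start. Ciart, which encodes another repressor of the loop and has 3 E-boxes within 93 bases before its start, read 5.49 on both arrays. Timeless and Tipin, which the list of 12 also counts, are partners in replication fork protection and differed by -0.21 and 0.30. Nfil3, the D-box repressor that opposes DBP and TEF, read 4.36 and 4.52, and Rorb 3.28 and 2.96, both under the floor.

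Genes for enzymes and partners that modify clock proteins numbered 11 above the floor. Of these, 0 passed 1.5-fold downward and 1 passed it upward, beside 13.2% and 8.63% of all genes above the floor. The 1 higher gene, Btrc, encodes the ubiquitin ligase subunit that marks PER proteins for destruction, and was 1.52-fold higher (7.20 and 7.81 log2 units). It lies below the 8.31 of the negative-control floor, under which 0 genes of the list passed, as at a 2-fold limit. Above that floor 6.01% of all genes were at least 1.5-fold higher, and at a 2-fold limit 1.81% of all genes above the background floor were higher. The median of the 11 was -0.07. The casein kinase genes Csnk1d and Csnk1e, whose products phosphorylate PER, differed by -0.47 and 0.03. Cipc, which encodes a CLOCK-interacting repressor, differed by -0.52. Of 7 clock output genes above the floor, Klf10, an early response transcription factor gene, was 1.66-fold lower (9.85 and 9.12 log2 units), and 0 were higher. The same shares of all genes, 13.2% lower and 8.63% higher, stand beside these counts. The cell cycle kinase gene Wee1 differed by 0.33 and the NAD synthesis gene Nampt by -0.44. The median of the 7 was -0.10; it was -0.26 over all 9 list genes with no floor, of which 2 were lower, and -0.26 over the 5 genes above the negative-control floor. At a 2-fold limit 0 of the 7 were lower, beside 3.05% of all genes above the floor.

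**Figure D4:**
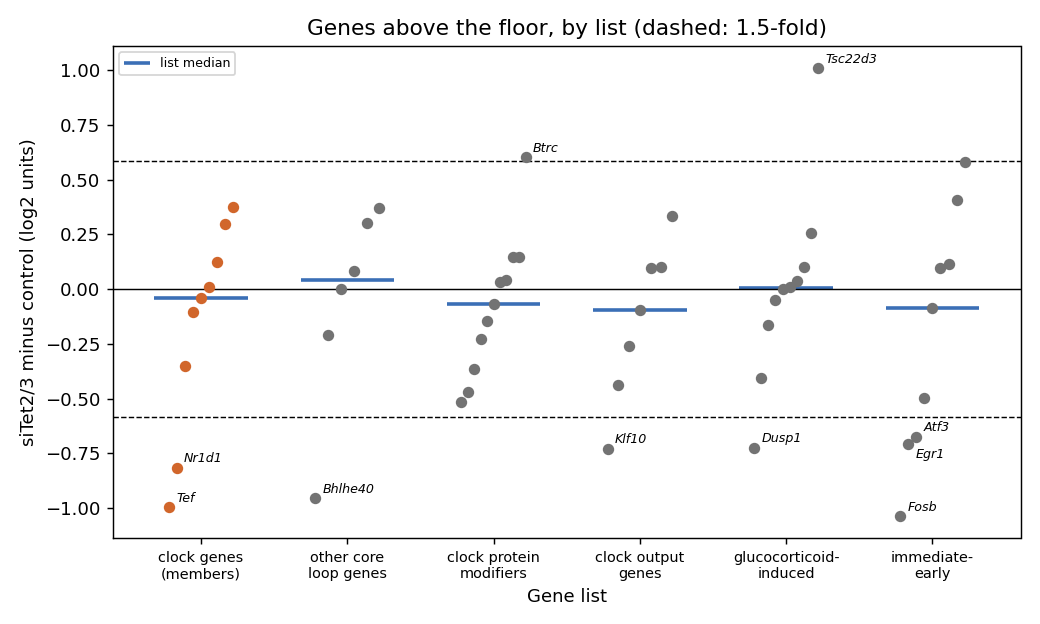
Difference between the arrays (vertical axis, siTet2/3 minus control in log2 units) of each gene above the floor in the clock gene set (orange) and in 5 other lists (grey), 1 point per gene, with the median of each list as a bar and dashed lines at 1.5-fold; genes past 1.5-fold are named. The medians of all 6 lists lie between -0.10 and 0.04.

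The labelled cell type was checked with marker genes. All 8 keratinocyte markers with a named probe were above the floor on both arrays, among them Krt14 and Tp63, and they spanned 8.78 to 18.86 log2 units. They were not all alike between the arrays: Krt15, a keratin gene of basal cells, was 5.59-fold higher with the siRNAs (8.78 and 11.26), while the other 7 differed by less than 1.5-fold, Krt14 by 0.16 and Tp63 by -0.41. Of the fibroblast markers 0 of 6 were above the floor, of the melanocyte markers 1 of 3 (Mitf), of the endothelial markers 1 of 4 (Tek), of the immune markers 1 of 4 (Cd68) and of the muscle markers 1 of 3 (Acta2); these 4 differed by less than 1.5-fold. Collagen genes Col1a1 and Col1a2, Pecam1 and Ptprc read below the floor on both arrays. Tet2 and Tet3 had no named probe, so the size of the knockdown was not analysed here.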

How the data were processed

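The authors deposited 1 table of log2 signals, with a row per probe set and a column per array. RMA and the Transcriptome Analysis Console are named, without versions, in the submitters' processing notes. The sorted columns differed by at most 0.151, so total RNA per cell cannot be seen. The table held 24834 rows, 23188 of them gene probes; a platform annotation named 1 gene for 15049, several for 0 and none for 8139. Probes of 1 gene were averaged.

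The difference siTet2/3 minus control was taken per gene in Python 3.11.15 with pandas 2.3.3; 1 array per group allows no test. The robust SD is 1.4826 times the median absolute deviation over the 400 genes nearest in mean level. Trends were removed with lowess (statsmodels 0.14.6, span 0.3). Counting was tested on simulated data well above the floor and with less noise than the spread between these arrays. That test covers the counting steps and not the certainty of any difference here. The clock genes and lists were chosen with earlier results of these data known. All 10 clock genes were named, with Bmal1, Npas2 and, in each list, every gene past 1.5-fold above the floor; Thra and other list members were named after their values were seen. Promoter sequences are from RefSeq, GRCr8; all 10 gene identifiers matched. The alternatives were other floors, scalings, a 2-fold limit, the brightest probe and other list summaries.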

Additional observations from a re-analysis of the deposited data

How the results depend on the processing

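No paired analysis was possible because each group has 1 array, and no array could be left out. The count of 2 clock genes at least 1.5-fold lower fell to 1, Nr1d1, with a floor 1 log2 unit higher, with the floor set by negative-control probes and when low values were raised to the floor, and to 0 at a 2-fold limit; it was 2 with no floor, after centring, after trend removal and with the brightest probe. The count of clock genes 1.5-fold higher was 0 in every one of these settings. The mean difference of the 9 was -0.17 in place of the median of -0.04, and the median was 0.01 after centring and with either higher floor. Raised to the floor, Tef differed by -0.12. For the other core loop genes the count of 1 lower gene fell to 0 at 2-fold, and the mean difference was -0.068. Their median of 0.04 was 0.30 with the floor set by negative-control probes. That floor left 3 genes, Bmal1, Tipin and Bhlhe40, and 0.30 is the value of Tipin. Of 8103 genes, 11.1% were lower and 10.4% higher after centring, and 11.2% and 10.2% after trend removal. At a 2-fold limit 3.05% of them were lower and 1.81% higher. Of the 4124 genes above the negative-control floor, 10.98% were at least 1.5-fold lower and 6.01% at least 1.5-fold higher. Signals near the floor limit Per2, Per3, Cry1, Cry2 and Tef.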

Other observations

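Because the medium held hydrocortisone and serum, both of which act on Per1, lists of glucocorticoid-induced and immediate-early genes were read beside the clock genes. Of 10 glucocorticoid-related genes above the floor, Tsc22d3, which encodes the anti-inflammatory leucine zipper protein GILZ, was 2.01-fold higher on the siTet2/3 array (8.29 and 9.30 log2 units). The phosphatase gene Dusp1, which is also an immediate-early gene, was 1.65-fold lower (14.72 and 14.00). The other 8 were neither, among them Fkbp5 (8.49 and 8.50), Sgk1 (11.92 and 11.96) and the receptor gene Nr3c1 (9.14 and 8.98). So 1 lower and 1 higher of 10 stand beside 13.2% lower and 8.63% higher of all genes above the floor. At a 2-fold limit 0 of the 10 were lower, beside 3.05% of all genes above the floor. With no floor 2 of the 14 list genes were at least 1.5-fold lower. The list median was 0.01. Per1 differed by 0.12, and whether it followed the glucocorticoid-related genes was not tested. Mt2A stood at 19.93, the top of the deposited scale, in both groups, so its difference cannot be read. It is nevertheless counted among the 10 genes, the other 8 and the list median.

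Of 9 serum- and cAMP-responsive immediate-early genes that passed the floor, 3 read 1.5-fold lower or more: Fosb (at least 1.96-fold, its siTet2/3 value being below the floor), the transcription factor gene Egr1 (1.63-fold, 11.36 and 10.65 log2 units) and Atf3 (1.60-fold, 8.20 and 7.53). Over all genes above the floor 13.2% were lower, which corresponds to 1.19 of 9. The count was 1 of 3 genes with the floor set by negative-control probes, beside 10.98% of all genes above that floor. It was 1 of 9 at a 2-fold limit, beside 3.05% of all genes above the background floor. None were higher, though 1 was after centring, beside 8.63% and 10.4% of all genes above the background floor. Fos differed by 0.11 and Junb by -0.09. The list median was -0.09, or -0.50 with a floor 1 log2 unit higher, which left 5 genes.

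Ciart held the same deposited value on both arrays, as did 105 named genes in all below the top of the scale. Why values coincide was not tested.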
